A study of Mus musculus with 29 samples.

Results

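Mef2c encodes MEF2C, a transcription factor of the MADS-box MEF2 family, and the gene was followed here through every sorted library of the amygdala and of the medial prefrontal cortex. Its row was found by its Ensembl identifier, ENSMUSG00000005583.16, matched to the symbol in GENCODE M21. It was 1 gene of 9872 in the amygdala table and 1 of 6080 in the prefrontal table, and it had a value in 13 libraries of each region, 26 in all. The gene was chosen by its readout. It was among the rising genes with the smallest p in Sus-T against Res-T amygdala libraries without trauma. It also ranked among the leading risers of the same contrast with trauma in the prefrontal cortex. Those contrasts, and every contrast that shares libraries with them, are given as descriptions with no p-value. The difference with trauma in the amygdala and the difference without trauma in the prefrontal cortex share no library with them and carry a test. Their standard errors come from the fit of all 4 groups of a region, so they also use the spread of libraries that chose the gene. The labels do not say whether both regions came from the same mice, so the tests may not be fully separate from that choice.

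All mice were of the line B6.Cg-Tg(Thy1-YFP)HJrs/J, in which a Thy1 promoter drives a yellow fluorescent protein in a subset of projection neurons, and fluorescent pyramidal neurons were sorted from dissociated tissue punches. The labels divide them into Res-T and Sus-T, terms they do not spell out, each without trauma or with trauma, and the title of the series names inefficient fear extinction as its subject. The amygdala had 3 Res-T and 2 Sus-T libraries without trauma and 4 of each with trauma. The prefrontal cortex had 4 Res-T and 2 Sus-T libraries without trauma, 3 Res-T and 4 Sus-T libraries with trauma, and 3 further labelled samples, replicate 2 of Sus-T without trauma in either region and of Res-T with trauma in the cortex, were not used here because no column matched them. Age and sex are not in the labels used here. The design text gives 9 mice, which is less than the number of amygdala libraries, and no label says which libraries came from separate animals, so the p-values measure the spread between libraries only.

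In excitatory forebrain neurons MEF2C acts from early differentiation onward and is known for limiting the number of excitatory synapses in response to activity. Calcium entry activates calcineurin, which dephosphorylates MEF2 proteins, and calmodulin-dependent kinases, which drive class IIa histone deacetylases out of the nucleus, so that MEF2 changes from repressor to activator at its target genes. Heterozygous loss of the human gene causes a neurodevelopmental disorder with intellectual disability. In the brain Mef2c is also expressed by microglia, endothelial cells and parvalbumin interneurons.

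The gene lies on the plus strand of chromosome 13 at chr13:83504034-83667080 (GRCm38.p6, GENCODE M21). It spans 163047 bases and 31 annotated transcripts, and no other annotated gene overlaps it. RefSeq (GRCm38.p6) gives 3 start sites, the second 19622 and the third 69573 bases downstream of the first. The windows of 250 bases before the first and the third start hold no annotated exon and are shown as the sequence in front of those annotated starts; the window of the second is left out because part of it lies in annotated exons. Capitals mark the match to a TATA box, which lies on the minus strand.
start 1, chr13:83503784-83504033, plus strand: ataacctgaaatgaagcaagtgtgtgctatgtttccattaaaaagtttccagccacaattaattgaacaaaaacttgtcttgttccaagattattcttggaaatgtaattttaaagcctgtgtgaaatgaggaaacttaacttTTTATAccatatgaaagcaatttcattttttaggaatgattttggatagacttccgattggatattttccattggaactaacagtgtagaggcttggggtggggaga
start 3, chr13:83573357-83573606, plus strand: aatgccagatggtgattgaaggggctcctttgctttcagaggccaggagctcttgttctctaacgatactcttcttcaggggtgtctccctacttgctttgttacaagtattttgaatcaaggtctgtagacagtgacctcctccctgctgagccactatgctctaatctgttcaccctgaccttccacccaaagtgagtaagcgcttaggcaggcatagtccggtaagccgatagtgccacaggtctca
The first window has a GC content of 33.6% and the third 49.6%. Both strands were searched for the MEF2 consensus, the SRF CArG box, the TATA box TATAAA and the E-box CANNTG. The first window held 1 TATA box match, 107 bases before the start, and 2 E-boxes, and the third held 1 E-box. The TATA box match reads TATAAA on the minus strand, opposite to the gene. Neither held a MEF2 consensus or a CArG box. Over 32851 RefSeq windows of the same length a MEF2 consensus was present in 2.92%, a CArG box in 1.47%, a TATA box in 12.4% and an E-box in 66.2%. The deposited values are per gene, so the use of these starts was not measured.

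The values are a signal in arbitrary units that the authors normalized by a step not given in the sources used here, separately for each region, so levels are not compared across the regions. Library totals ran from 3267967 to 4021272 units for the amygdala and from 2095138 to 2444486 units for the prefrontal cortex, and the read depth is unknown. Of 10 pyramidal neuron markers, 3 (Camk2n1, Nrgn and Chn1) had values in the amygdala, and 0 of 10 had them in the prefrontal cortex. The vesicular glutamate transporter genes Slc17a7 and Slc17a6, Neurod6, Tbr1 and Thy1 had none in either table, whereas 14 and 10 of 15 oligodendrocyte markers had values. Some libraries stood apart from their labels. Prefrontal Res-T without trauma replicate 4 lay with the Res-T libraries with trauma on the first principal component, which held 34.6% of the variance, with a weight of 0.384 against 0.363 to 0.430 for those 3. Replicate 2 of the same group dominated the second component with a weight of 0.839. In the amygdala the 3 Res-T libraries without trauma lay together at one end of the first component. On its second component, with 17.2% of the variance, Sus-T with trauma replicate 2 (weight 0.683) and Res-T with trauma replicate 2 (0.437) stood apart, and the 2 Sus-T libraries without trauma lay at -0.518 and 0.032.

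In the amygdala, Mef2c was low in Res-T libraries without trauma and high in Sus-T libraries without trauma, and both groups with trauma lay between them. The 3 Res-T libraries without trauma had normalized values of 90.2, 98.8 and 216, a mean of 135 ± 70.4 (SD, n = 3). The 2 Sus-T libraries without trauma had 963 and 913, a mean of 938 ± 35.8 (SD, n = 2). With no overlap, the lowest Sus-T library stood above the highest Res-T library. After trauma the Res-T libraries had 466, 363, 359 and 298 (mean 372 ± 69.6, SD, n = 4). The Sus-T libraries with trauma had 386, 370.4, 491 and 554 (mean 450.2 ± 87.4, SD, n = 4). These groups overlapped: 2 of the Sus-T values lay below the highest Res-T value.

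**Figure D1:**
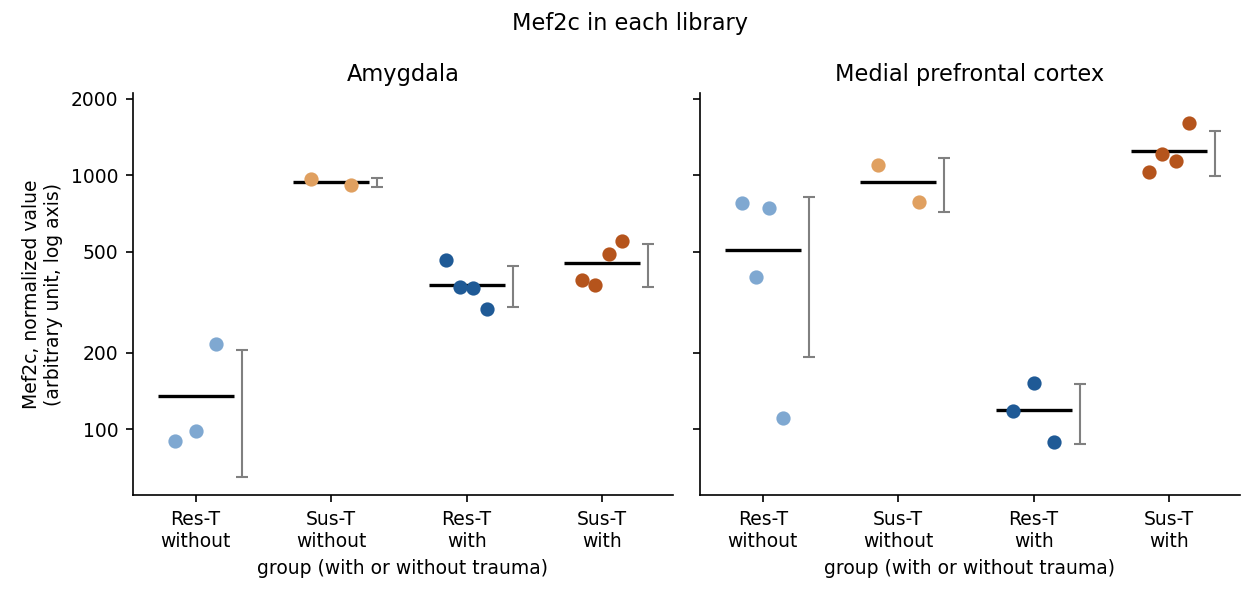
Normalized Mef2c value of each library (points, log axis, arbitrary unit) by group, with the group mean (line) and 1 SD on either side (grey bar beside it). In the amygdala the 2 Sus-T libraries without trauma, at 913 and 963, stand above the other 11; in the prefrontal cortex the 3 Res-T libraries with trauma and 1 Res-T library without trauma lie between 88.8 and 152.

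Without trauma the amygdala difference between Sus-T and Res-T was 2.90 ± 0.31 on the log2(value + 1) scale (standard error from limma), 7.48-fold higher in Sus-T, where folds here and below are of the fitted mean log2 values and not of the means. This contrast chose the gene, and the difference ranked 103 of 9872 by size. Non-overlap in this direction was common, at 27.7% of all genes, so it says little about Mef2c by itself. With trauma the difference was 0.27 ± 0.24, 1.21-fold higher in Sus-T, and did not pass the test (limma, Benjamini-Hochberg adjusted p = 0.71 over 9872 genes). Its 95% confidence interval ran from -0.24 to 0.78. No gene at all was called in this contrast (0%), although 1142 genes had an unadjusted p under 0.05. It called up to 12 on leaving out 1 library (without Res-T replicate 2) and 13 with the oligodendrocyte covariate described below.

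Trauma went with opposite shifts of Mef2c in the amygdala of Res-T and Sus-T mice. In Res-T the level was 1.55 ± 0.26 higher on the log2 scale with trauma than without, or 2.93-fold, and all 4 libraries with trauma exceeded all 3 without, as was so for 9.68% of genes. In Sus-T it was lower with trauma by 1.08 ± 0.30, or 2.11-fold, and all 4 libraries with trauma fell below both without, as was so for 7.77% of genes. The trauma effect in Sus-T minus that in Res-T was -2.63 ± 0.40. These differences share the libraries without trauma with the contrast that chose the gene, which fixed Res-T low and Sus-T high there, so they are described and not tested.

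In the prefrontal cortex, Mef2c was low in Res-T libraries with trauma and high in both Sus-T groups. The 3 Res-T libraries with trauma had 118, 152 and 88.8, a mean of 120 ± 31.8 (SD, n = 3). The 4 Sus-T libraries with trauma had 1030.0, 1218, 1135 and 1608, a mean of 1248 ± 252 (SD, n = 4), so that every Sus-T value was above every Res-T value. Without trauma the 2 Sus-T libraries had 1101 and 784, a mean of 943 ± 224 (SD, n = 2). The Res-T libraries without trauma were the most scattered of all groups, with 779, 399, 745 and 111 (mean 508 ± 316, SD, n = 4). The value of 111 belongs to replicate 4, the library that lay with the Res-T libraries with trauma across all genes.

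With trauma the prefrontal Sus-T minus Res-T difference was 3.38 ± 0.47 (log2), or 10.4-fold, and ranked 5 of 6080 by size. It too is a description, since it was among the leading differences of that contrast, and non-overlap in this direction was found for 24.4% of genes. Without trauma the level was 2.32-fold higher in Sus-T, a difference of 1.21 ± 0.53 with a 95% confidence interval from 0.09 to 2.34. It did not pass the test over all genes (limma, unadjusted p = 0.0359, adjusted p = 0.456), a contrast in which 0% of genes were called and 630 had an unadjusted p under 0.05. Without Sus-T replicate 3 it called 53 genes, without Res-T replicate 2 it called 11. The 2 groups did not overlap, but only narrowly (784 against 779), as was so in this direction for 8.16% of genes. Without Res-T replicate 4 the difference was 0.60 ± 0.31 (limma, adjusted p = 0.643).

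Trauma in the prefrontal cortex went with a lower Mef2c level in Res-T, by -1.77 ± 0.47 (log2), or 3.40-fold. The groups overlapped through replicate 4 without trauma, whose value of 111 lay within the 88.8 to 152 of the libraries with trauma. Without that library the difference was -2.38 ± 0.28. In Sus-T the level differed by 0.40 ± 0.53 and the groups overlapped, and the trauma effect in Sus-T minus that in Res-T was 2.17 ± 0.71. No gene was called for trauma in prefrontal Res-T (0%; 899 had an unadjusted p under 0.05) or in Sus-T (0%; 91 genes). Without Res-T replicate 4, 588 genes were called for trauma in Res-T.

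**Figure D2:**
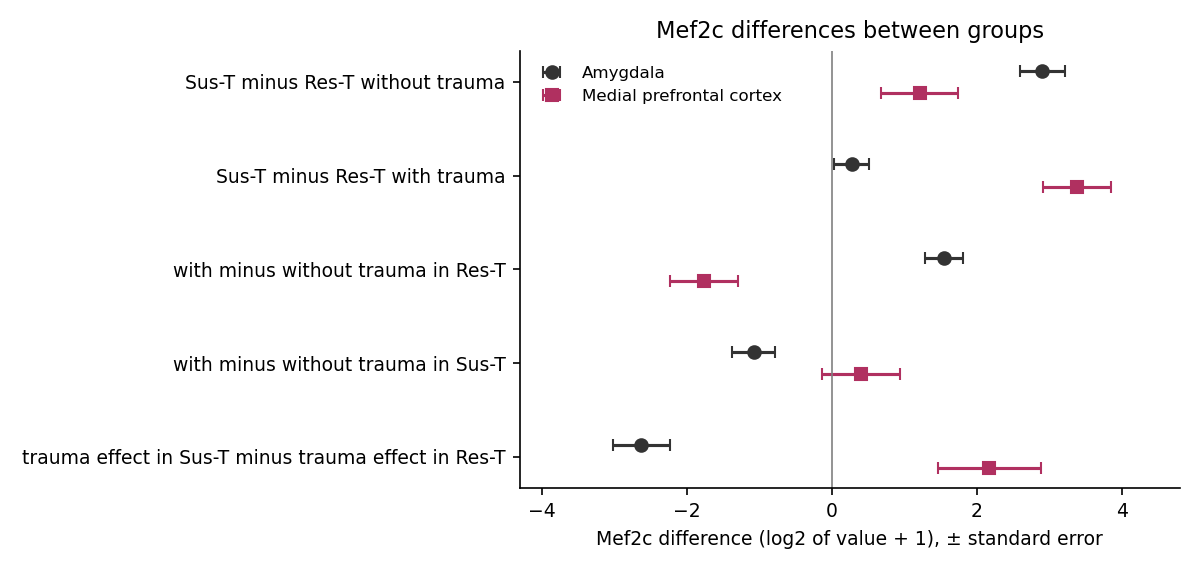
Differences of Mef2c between groups on the log2(value + 1) scale with the standard error from limma, for the amygdala (circles) and the prefrontal cortex (squares). The trauma difference in Res-T is 1.55 for amygdala and -1.77 for prefrontal libraries. Sus-T minus Res-T is largest without trauma in the amygdala (2.90) and with trauma in the prefrontal cortex (3.38).

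From low to high, the amygdala groups ran Res-T without trauma, Res-T with trauma, Sus-T with trauma and Sus-T without trauma, and only the middle pair overlapped. In the prefrontal cortex the order was Res-T with trauma, Res-T without trauma, Sus-T without trauma and Sus-T with trauma. There the first pair overlapped through 1 library, the nearest libraries of the second pair were at 779 and 784, and the last pair overlapped. The highest library stood 10.7-fold above the lowest in the amygdala, and in the cortex the ratio was 18.1-fold. In both regions the Sus-T mean lay above the Res-T mean in both conditions. The trauma difference in Res-T had opposite signs in the regions, and since the tables were normalized separately this difference between regions was not tested.

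Mef2c was low where oligodendrocyte markers were high. In the amygdala the summed oligodendrocyte markers took 5.80% to 6.76% of the library total in Res-T without trauma, 1.84% to 2.73% in Sus-T without trauma, 4.33% to 5.47% in Res-T with trauma and 3.73% to 5.07% in Sus-T with trauma. In the prefrontal cortex they took 4.93% to 6.98% in Res-T with trauma and 2.44% to 4.25% in Sus-T with trauma, and 2.36% to 3.51% in Sus-T without trauma. Prefrontal Res-T without trauma ran from 3.004% to 8.14%, and the highest share belonged to replicate 4, the library with a Mef2c value of 111. Without removing group means, the correlation of Mef2c with the mean log2 level of these markers was -0.86 for amygdala and -0.81 for prefrontal libraries. Differences between groups enter these values. After the group means were removed, it was -0.30 for amygdala and -0.50 for prefrontal libraries. Each was taken over 13 libraries that share normalization with the markers. Fewer neurons in a sort and less Mef2c RNA per neuron cannot be told apart in such bulk libraries.

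**Figure D3:**
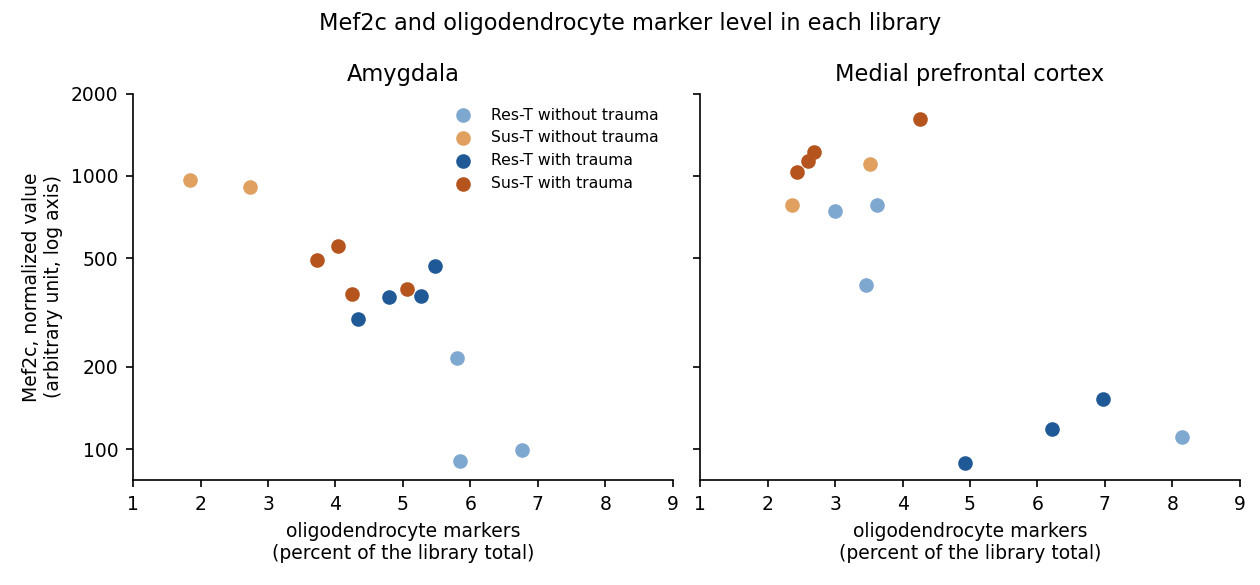
Normalized Mef2c value (log axis, arbitrary unit) against the summed oligodendrocyte markers as a percent of the library total, 1 point per library, coloured by group. The 4 prefrontal libraries with a Mef2c value of at most 152 have 4.93% or more, and the 2 amygdala Sus-T libraries without trauma have 1.84% and 2.73%.

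When this marker mean entered the fit as a covariate, the amygdala difference without trauma became 2.02 ± 0.90 and the prefrontal difference with trauma 2.46 ± 0.60. The amygdala trauma difference in Sus-T became -0.55 ± 0.58 and the difference of trauma effects -1.85 ± 0.84. The markers differ between the groups themselves, so the fit cannot tell the group from the marker level. Markers of other cell types were summed in the same way. In the amygdala 3 of 12 microglial markers (Tmem119, Cx3cr1 and C1qa) had values, and their sum took 0.00597% to 0.00934% in Res-T and 0.0221% to 0.0273% in Sus-T without trauma, and 0.00890% to 0.0184% in Res-T and 0.00692% to 0.0302% in Sus-T with trauma. Endothelial and mural markers (5 of 10 with values) took at most 0.0263% in any amygdala library and were not higher in Sus-T than in Res-T without trauma (0.0161% to 0.0165% against 0.0217% to 0.0251%). Of 8 interneuron markers only Erbb4 and Dlx1 had values, and took 0.0322% to 0.0374% in Res-T and 0.0231% to 0.0250% in Sus-T without trauma. Astrocyte markers (8 of 10) took 0.277% to 0.445% in Res-T and 1.0002% to 1.84% in Sus-T without trauma. The 3 pyramidal neuron markers took 0.00660% to 0.00818% in Res-T and 0.0559% to 0.0705% in Sus-T without trauma, 0.0170% to 0.0335% in Res-T with trauma and 0.0341% to 0.135% in Sus-T with trauma. For prefrontal libraries 0 of 12 microglial and 0 of 10 endothelial markers had values. Astrocyte markers there (5 of 10) overlapped with trauma, at 0.126% to 0.4835% in Res-T and 0.141% to 0.523% in Sus-T. The part of these markers in the Mef2c differences was not tested.

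Of the other MEF2 family genes, Mef2a and Mef2d had values in the amygdala and Mef2d alone in the prefrontal cortex. Mef2d rose with Mef2c in amygdala Sus-T libraries without trauma. It stood at 334, 318 and 340 in the Res-T libraries (mean 331 ± 11.1, SD, n = 3) and at 653 and 715 in the Sus-T libraries (mean 684 ± 43.4, SD, n = 2), a log2 difference of 1.04 ± 0.22 (limma, adjusted p = 0.0020). Mef2a overlapped between the groups, with 1081, 1077 and 1614 in Res-T and 1384 and 1097 in Sus-T without trauma. Per kilobase of annotated exon, Mef2c was the lowest of the 3 in amygdala Res-T without trauma, at 8.60 ± 4.48 against 85.6 ± 21.04 for Mef2a and 55.3 ± 1.86 for Mef2d (SD, n = 3). In Sus-T without trauma these per-kilobase levels were 59.7 ± 2.28, 84.5 ± 13.8 and 114 ± 7.25 (SD, n = 2). Whether the values scale with transcript length is unknown, and the division used the exons of all annotated transcripts. Undivided, the Mef2c mean of 938 stood above the Mef2d mean of 684 in Sus-T without trauma, so the order of these genes depends on the division. In the prefrontal cortex with trauma Mef2d had 388, 520 and 340 in Res-T and 908, 546, 748 and 434 in Sus-T, groups that overlapped (log2 difference 0.63 ± 0.29, limma, adjusted p = 0.124).

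Some genes of the calcium and kinase input to MEF2 rose in the contrasts in which Mef2c stood highest. Those contrasts chose Mef2c, and the gene lists were chosen with earlier results of these data known. The counts and calls of list genes here and below are therefore not independent of that choice. In amygdala Sus-T libraries without trauma 7 of 17 measured members rose and 0 fell. The median log2 difference of the measured members was 0.80 against -0.03 over all genes. Over all 9872 genes 12.4% were called higher and 15% lower in this contrast. With the oligodendrocyte covariate the genes called went from 2706 to 23. Among the list genes named by rule for this contrast, Mef2d included, the call of Camk2a alone held (limma, adjusted p = 0.0237). Camk2a, the alpha subunit of calcium/calmodulin-dependent kinase II and itself abundant in excitatory neurons, rose from a mean of 67.0 ± 11.0 (SD, n = 3) to 2311 ± 926 (SD, n = 2), a log2 difference of 5.04 ± 0.58 (limma, adjusted p = 4.26e-05). Camk1d, a calmodulin-dependent kinase, rose 5.48-fold (limma, adjusted p = 7.45e-05). Calcineurin is also among the members that rose, through its catalytic subunit gene Ppp3cb and its regulatory subunit gene Ppp3r1. Both were named after their values were seen, and their covariate results are not given here.

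In prefrontal Sus-T libraries with trauma 5 of 11 measured members of this list rose and 0 fell. The median of the measured members was 1.03 against 0.15 over all genes. Of the 6080 genes 14% were called higher and 8.93% lower. With the oligodendrocyte marker level as a covariate 0 genes were called in this contrast, against 1397 without it, so every prefrontal call named here and below ended. Rcan1, a calcineurin inhibitor that is itself induced by calcineurin signalling, rose from 20.9 ± 7.83 (SD, n = 3) to 147 ± 52.3 (SD, n = 4), a log2 difference of 2.74 ± 0.53 (limma, adjusted p = 0.0033). Calm2 rose 2.42-fold and Ppp3cb 2.18-fold (limma, adjusted p = 0.00256 and 0.00524). Trauma in amygdala Res-T went with higher levels of 5 of the 17 members and lower levels of 0, beside 3.3% and 2.88% of all genes: Camk2a rose 6.50-fold and Calm3 1.85-fold (limma, adjusted p = 0.0100 and 0.0116). The call of Calm3 ended without Res-T replicate 1 or 3 without trauma (limma, adjusted p up to 0.058).

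Of 8 measured corepressors, among them the class IIa deacetylases, 1 rose and 1 fell in amygdala Sus-T without trauma, a share near the 12.4% and 15% of all genes. Hdac4 rose (log2 0.87 ± 0.22, limma, adjusted p = 0.00797) and Hdac7 fell (-0.86 ± 0.31, adjusted p = 0.0459), and the other 6 did not pass. Hdac4 no longer passed without Sus-T replicate 3 (limma, adjusted p = 0.0975), and Hdac7 without that library or without Res-T replicate 1 or 3 (adjusted p up to 0.438). In prefrontal Sus-T with trauma 1 of 6 members rose, beside 14% of all genes, and it was Hdac5 (0.84 ± 0.26, limma, adjusted p = 0.0286), and this call ended on leaving out any of the 7 libraries except Sus-T replicate 4 (adjusted p up to 0.103). No corepressor was called for trauma in amygdala Res-T.

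Among the coactivators, Crtc1, a CREB coactivator that calcineurin sends to the nucleus, rose in Sus-T in both regions. In the amygdala without trauma it went from 182 ± 38.9 (SD, n = 3) to 416 ± 17.7 (SD, n = 2), a log2 difference of 1.21 ± 0.27 (limma, adjusted p = 0.00342). In the prefrontal cortex with trauma it went from 161 ± 17.0 (SD, n = 3) to 543 ± 178 (SD, n = 4), a difference of 1.70 ± 0.27 (limma, adjusted p = 0.00165), the 1 coactivator called of 6 measured there, beside 14% of all genes called higher. In the amygdala 1 of 7 coactivators rose and 2 fell in Sus-T without trauma, beside 12.4% and 15% of all genes. Those that fell were Kat2b, a histone acetyltransferase, by 2.24 ± 0.32 and Ncoa3, a nuclear receptor coactivator, by 1.23 ± 0.20 on the log2 scale (limma, adjusted p = 9.34e-05 and 0.000284). The sign of Kat2b turned with the oligodendrocyte covariate, to 0.71 ± 0.53. Ncoa3 also fell with trauma in amygdala Res-T, by 0.98 ± 0.17 (limma, adjusted p = 0.00607). It was the 1 coactivator called of 7 there, beside 3.3% of all genes called higher and 2.88% lower.

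Of 11 measured genes known to be regulated by MEF2 in neurons, 2 rose and 1 fell in amygdala Sus-T without trauma, beside 12.4% and 15% of all genes. Egr3, an activity-induced transcription factor, rose by 1.98 ± 0.53 (limma, adjusted p = 0.0108), a call that ended without either Sus-T library (adjusted p up to 0.082). Kcna1, a potassium channel subunit of axons, went the other way, from 1555 ± 439 (SD, n = 3) to 459 ± 142 (SD, n = 2), a difference of -1.76 ± 0.30 (limma, adjusted p = 0.000405). With trauma in amygdala Res-T, 1 of 11 rose and 1 fell, beside 3.3% and 2.88% of all genes. The member that fell was Kcna1, by 1.03 ± 0.25 (limma, adjusted p = 0.0233). The call of Kcna1 ended on leaving out any Res-T library without trauma or replicate 3 with trauma (adjusted p up to 0.133). In prefrontal Sus-T with trauma Homer1, a postsynaptic scaffold protein, was the 1 member called of 8, beside 14% of all genes called higher, at 0.88 ± 0.24 (limma, adjusted p = 0.0159). That call ended without Res-T replicate 1 or Sus-T replicate 3 (adjusted p up to 0.0678).

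Mef2c itself belongs to the transcription factors of projection neurons. Of 28 others listed, 16 had values in the amygdala, where 7 rose and 2 fell in Sus-T without trauma, with a median log2 difference of 0.94 against -0.03 over all genes, of which 12.4% were called higher and 15% lower. Tshz2, a zinc finger factor of cortical neurons, rose 5.97-fold and Zbtb18, a repressor required for cortical neuron differentiation, 2.82-fold (limma, adjusted p = 0.000133 and 0.000825). Zeb2, a repressor that oligodendrocytes also require, fell from 7470.4 ± 690 (SD, n = 3) to 3391 ± 221 (SD, n = 2), by 1.14 ± 0.22 on the log2 scale (limma, adjusted p = 0.00119). Pou3f1, a POU factor of cortical neurons and of myelinating Schwann cells, fell by 1.68 ± 0.48 (limma, adjusted p = 0.0149). Its call ended without Res-T replicate 1 or Sus-T replicate 1 (adjusted p up to 0.143), and its sign turned with the oligodendrocyte covariate, to 0.50 ± 1.30. In prefrontal Sus-T with trauma 3 of 9 rose and 1 fell, beside 14% and 8.93% of all genes. Zbtb18 rose 2.37-fold, Foxp1 1.94-fold and Cux1 1.62-fold, and Zeb2 fell by 0.78 ± 0.20 on the log2 scale (limma, adjusted p = 0.00823, 0.0152, 0.0482 and 0.0118). The call of Cux1 ended on leaving out any of the 7 libraries (adjusted p up to 0.137), that of Foxp1 without Res-T replicate 4 (0.0614) and that of Zeb2 without Res-T replicate 1 (0.0517). With trauma in amygdala Res-T, 1 of 16 rose and 1 fell, beside 3.3% and 2.88% of all genes. Tshz2 rose by 1.54 ± 0.32 and Zeb2 fell by 0.74 ± 0.19 (limma, adjusted p = 0.0116 and 0.0271). Both calls ended without Res-T replicate 1 without trauma, and that of Zeb2 also without replicate 2 or 3 without trauma or replicate 1 with trauma (adjusted p up to 0.0678 and 0.111).

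**Figure D4:**
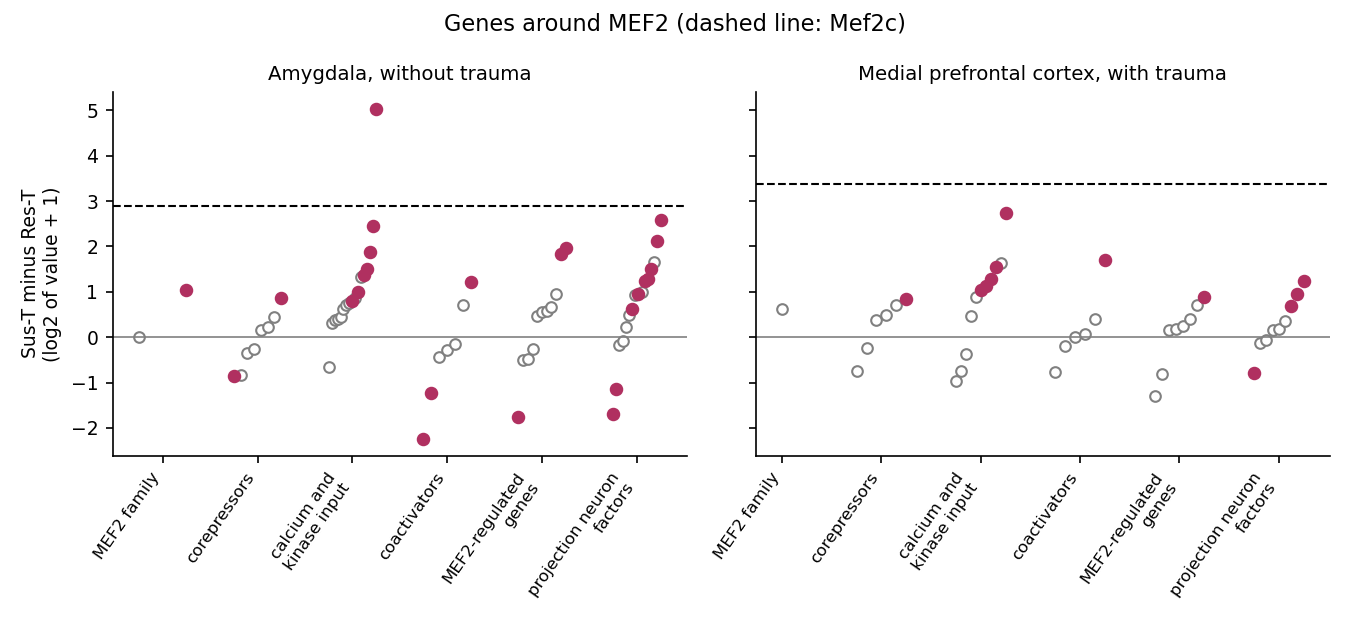
Sus-T minus Res-T differences (log2 of value + 1) of the genes of each list, 1 point per gene, in the amygdala without trauma and the prefrontal cortex with trauma. Filled points passed an adjusted p of 0.05 and the dashed line is Mef2c; in the calcium and kinase list the called genes are all higher, 7 of 17 and 5 of 11.

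In the contrasts that carry a test for Mef2c no member of any list was called. With trauma in the amygdala the member with the smallest p of each list was, in turn, Hdac7, Camk2a, Crtc1, Kcna1 and Tshz2, of which Camk2a differed most, by 1.94 ± 0.45 (limma, adjusted p = 0.118; 0.0331 with the oligodendrocyte covariate). Without trauma in the prefrontal cortex the corresponding members were Hdac7, Ppp3cc, Crtc1, Homer1 and Zeb2, of which Ppp3cc differed most, by 2.02 ± 0.74 (limma, adjusted p = 0.401). For trauma in amygdala Sus-T 3 genes in all were called (0.0304%), none of them in these lists, and 1168 had an unadjusted p under 0.05. Without Sus-T replicate 3 without trauma 287 genes were called for it, and without replicate 1 there was 1. For the difference of trauma effects in the amygdala 4.76% of genes were called higher and 1.98% lower. There 4 of 17 calcium and kinase genes were lower, among them Camk2a, Calm3 and Camk1d. Of the coactivators 2 of 7 were higher (Kat2b and Ncoa3), and of the projection neuron factors Zeb2 was higher. With the oligodendrocyte covariate this contrast went from 665 called genes to 2, and the calls of these 6 ended.

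Genes were also ranked by how closely they ran with Mef2c from library to library within groups. The measure was Pearson's r on log2(value + 1) over 13 libraries after each group mean was subtracted. These libraries share their normalization, and the group of Res-T without trauma held 68.1% of the within-group squares of Mef2c in the amygdala and 88.8% for the cortex, where replicate 4 alone held 59.1%. In the amygdala the highest r belonged to Rhbdd1 (0.89), Map2k6 (0.89), Ube2w (0.88), B4galt4 (0.87), Orc4 (0.87) and Hist1h1b (0.86). Map2k6 is a kinase that activates p38, which in turn phosphorylates MEF2C. The lowest r belonged to Bod1 (-0.96), Ppp1r12c (-0.92), Eif5a (-0.91), Efr3b (-0.90), Wdtc1 (-0.87) and Acot8 (-0.87). Without removing group means, r was 0.46 for Bod1, 0.39 for Ppp1r12c, 0.58 for Eif5a, 0.22 for Efr3b, 0.60 for Wdtc1 and -0.35 for Acot8. In the same way Rhbdd1 had 0.03, Map2k6 0.87, Ube2w 0.79, B4galt4 0.60, Orc4 -0.20 and Hist1h1b 0.69.

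Among prefrontal genes Nsd2 (0.95), Ankrd11 (0.94), Ap1b1 (0.94), Dnajc15 (0.94), Gtdc1 (0.93) and Mapk8ip3 (0.92) stood highest. Nsd2 is a histone methyltransferase and Ankrd11 a chromatin regulator. Mocs2 (-0.97), Guf1 (-0.89), Olfr2 (-0.89), Nkx2-2 (-0.84), Txndc15 (-0.83) and Gstm7 (-0.81) stood lowest. Without removing group means these prefrontal genes kept their sign, with r of 0.73 to 0.98 for the highest and -0.95 to -0.57 for the lowest. Nkx2-2 is a transcription factor of the oligodendrocyte lineage, and Olfr2 had a mean value of only 4.03. Without the Res-T libraries without trauma all 12 named genes of each region kept their sign, but prefrontal values shrank, for Gtdc1 to 0.26 and for Nkx2-2 to -0.22.

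**Figure D5:**
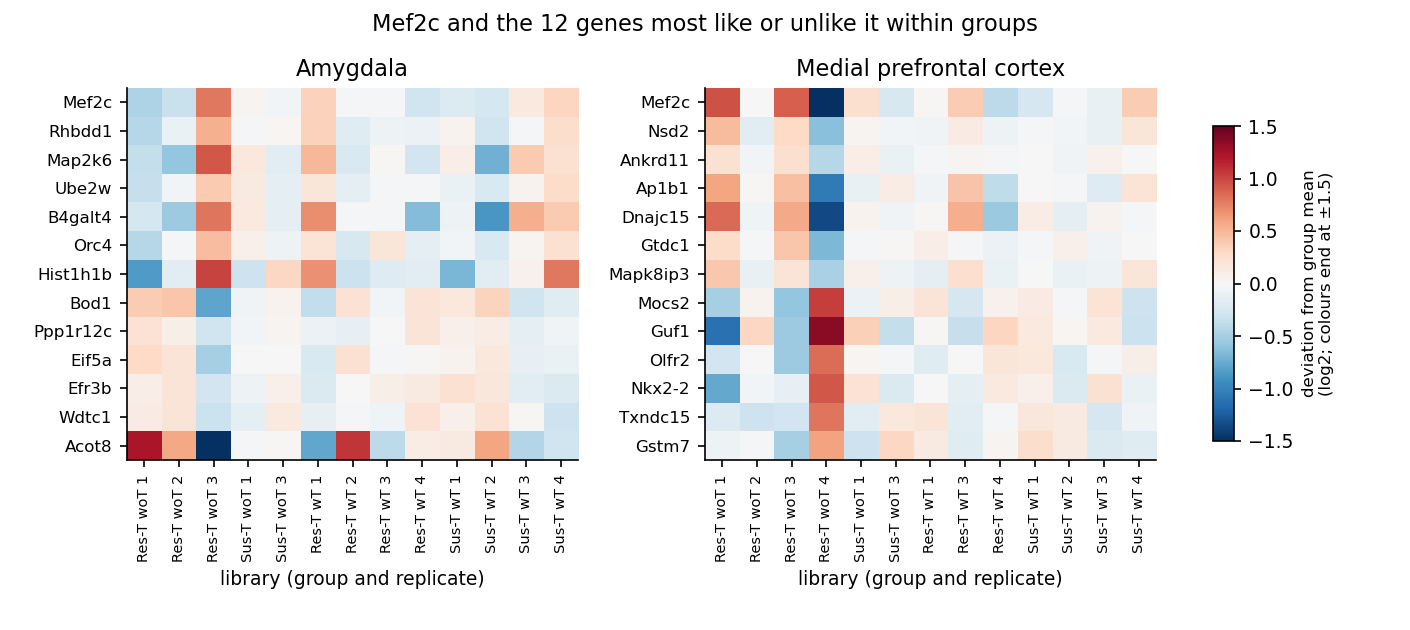
Deviation of each library from its group mean (log2 of value + 1, colour) for Mef2c in the top row and the 6 genes with the highest and 6 with the lowest r in each region. The strongest colours fall in Res-T without trauma, replicate 3 in the amygdala (Mef2c deviation 0.79) and replicate 4 in the prefrontal cortex (-1.85).

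Over the 5273 genes measured in both regions the r values of the regions had a correlation of 0.03 across genes and the same sign in 50.9%, a description in which genes are not independent replicates. Without removing group means, so that differences between groups also enter, the r values of the regions had a correlation of 0.70. Ranked by the smaller of both r, Ankra2 stood highest (0.78 for amygdala and 0.83 for prefrontal libraries), followed by B4galt4 (0.87 and 0.73), Rdh14, Aldh18a1, Coro2b, Sirpa, Rfx3 and Unkl. Ankra2 encodes an ankyrin repeat protein that binds class IIa histone deacetylases. Lowest in both were Atp11a (-0.78 and -0.76), Snx1 (-0.71 and -0.69), Sec22c and Dock5. Without removing group means Sec22c had 0.42 for amygdala and 0.18 for prefrontal libraries, and the other genes named over both regions kept their sign. For amygdala libraries that r was only 0.10 for Coro2b and 0.07 for Unkl. Without the Res-T libraries without trauma Ankra2 stayed at 0.58 and 0.88 and B4galt4 at 0.91 and 0.69, whereas the prefrontal r changed sign for Coro2b, Sirpa, Unkl, Atp11a, Snx1 and Dock5, and the amygdala r for Rfx3.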

How the data were processed

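RNA of sorted neurons was sequenced in 2 regions. The submitters' processing notes list bcl2fastq 2.20, Salmon 1.2 and the build GRCm38.p6. The authors deposited a normalized signal per gene, without a stated unit, by a method not given in the sources used here; whole reads could not be recovered, so no count model was used. Values repeated across the deposited tables were identical. In log2(value - 1) centred by gene, the amygdala libraries lacked 1 dimension and the prefrontal ones 2, so the spread may be too small and p-values too low.

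Log2(value + 1) was fitted per region with limma 3.58.1 (R 4.3.3), 4 groups in one fit, trend and robust moderation, 9 residual degrees of freedom and no block. P-values were adjusted by Benjamini-Hochberg over all genes of a region, with a threshold of 0.05. A mean minimum of 1 removed no gene. The fit was tested on simulated data with 200 changed genes. Correlations and promoter searches used Python 3.11.15. Symbols came from GENCODE M21 (9871 of 9872 and 6080 of 6080 matched).

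Mef2c and the gene lists were chosen with earlier results of these data known. Tests were planned for all 5 prefrontal contrasts, but only the one without trauma is tested, since Mef2c also led the contrast with trauma and the others share its libraries. Named were every measured MEF2 family gene; from each other list up to 3 members called in each direction by smallest p, or else the member with the smallest p; and the 6 highest and 6 lowest by r per region and 8 and 4 over both. Ppp3cb and Ppp3r1 in the amygdala and Camk1d in the difference of trauma effects were named after their values were seen. Some genes that this rule names are not reported here. Alternatives were quantile normalization, scaling to equal totals, pseudocounts of 0.1 and 10, other filters, only the groups compared, plain moderation, an oligodendrocyte covariate, a replicate block and leaving out each library.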

Additional observations from a re-analysis of the deposited data

Results flagged for a closer look

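All 4 amygdala Res-T libraries with trauma had more Mef2c than all 3 without, as was so for 9.68% of genes. All 4 Sus-T libraries with trauma had less than the 2 without, as was so for 7.77% of genes. The libraries without trauma chose the gene, with Res-T low and Sus-T high, so opposite shifts were favoured by that choice. The difference of trauma effects was -2.63 on the log2 scale, and for Mef2c the difference was not tested.

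For genes of the lists the same difference of trauma effects in the amygdala was tested with limma and passed for 6 of the genes named. It was -3.10 for Camk2a (adjusted p = 0.0236), -1.55 for Camk1d (0.0387) and -1.03 for Calm3 (0.0340). It was 1.93 for Kat2b (0.00983), 1.18 for Ncoa3 (0.0116) and 1.02 for Zeb2 (0.0387). All of these share the libraries without trauma. With the oligodendrocyte covariate all 6 calls ended (limma, adjusted p from 0.191 to 0.623), and Kat2b turned to -0.67.

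Within groups of 4 libraries, single values stood apart by Dixon's criterion, which chance alone meets in about 1 in 20 groups. It was applied to each MEF2 family gene and named list gene in every such group, so several values would stand apart by chance alone. In amygdala Sus-T with trauma, replicate 1 was highest for Crtc1 (577, next 369) and Egr3 (558, next 197). In prefrontal Sus-T with trauma, replicate 3 was lowest for Cux1 (524, next 679) and replicate 4 for Hdac5 (567, next 830.4). No Mef2c value in a group of 4 stood apart by this criterion.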

How the results depend on the processing

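No Mef2c difference changed sign under any alternative run, and neither tested difference passed the threshold under any: adjusted p ran from 0.649 to 0.879 for the amygdala with trauma and from 0.285 to 0.877 for the prefrontal cortex without trauma (limma). With the oligodendrocyte covariate the amygdala Sus-T minus Res-T difference without trauma was 2.02, trauma in Sus-T -0.55, the difference of trauma effects -1.85, and the prefrontal difference with trauma 2.46; the tested differences were 0.17 and 0.75. Leaving out each library in turn gave 2.67 to 3.30 for the amygdala difference without trauma, 1.32 to 1.95 for trauma in Res-T and -3.02 to -2.40 for the difference of trauma effects, with the far values without Res-T replicate 3. Deviations of same-numbered libraries from their group means had correlations of -0.446 to 0.159 for the amygdala and -0.395 to 0.346 for the cortex. They were over 0.1 in 3 of 16 pairs each. The 0.159 belongs to replicate 2 of amygdala Res-T and Sus-T with trauma, which stood apart on the second component. Deviations within such small groups mirror each other, so these correlations cannot show whether same-numbered libraries share an effect. With a replicate block the amygdala differences without and with trauma were 2.80 and 0.27 (adjusted p = 0.713 for the latter) and the prefrontal ones 0.90 (adjusted p = 0.727) and 3.39. Of 30 calls of named list genes, amygdala Ppp3cb and Ppp3r1 not included, 13 ended on leaving out 1 library. With the covariate 22 ended with the sign kept and 6 held. The other 2 ended and also turned sign, Kat2b to 0.71 and Pou3f1 to 0.50 (limma, adjusted p = 0.562 and 0.896). For trauma in amygdala Res-T the covariate gave 460 called genes against 610 without it. There the calls of Camk2a, Calm3, Ncoa3, Tshz2 and Zeb2 held (limma, adjusted p from 0.00733 to 0.0458), and that of Kcna1 ended (0.0689). Genes called fell further with the covariate elsewhere, from 2706 to 23 for the amygdala without trauma, from 665 to 2 for its difference of trauma effects and from 1397 to 0 for the prefrontal cortex with trauma. Leaving out 1 library gave 1565 to 2096, 59 to 810 and 624 to 1163 calls for these, and 101 to 708 for trauma in amygdala Res-T (610 with all). Of the 12 genes named by r, Spearman's rho kept 7 in the amygdala and 1 in the cortex, leaving out 1 library 1 to 11 and 0 to 11, and leaving out all Res-T libraries without trauma, chosen after seeing the data, 1 and 0.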
